A study of Sus scrofa with 15 samples.

Results

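Transcript signals were described in the kidneys of the 5 control pigs, which had 90 min of warm ischemia without ischemic preconditioning (IPC), out of 15 pigs in the series. All pigs were female Yorkshire pigs of 20 weeks whose left kidney had been removed 1 week before ischemia, so the right kidney, whose artery and vein were clamped, was the only one left. Kidney tissue was taken at 72 h, and total RNA of each pig was labelled with Cy3 and hybridised to 1 Agilent porcine array. The other 10 pigs had remote IPC in an early (rIPCe) or late (rIPCl) window before the same ischemia. They are not compared here, and no unclamped kidney was analysed, so a level below is a level after ischemia and not a change caused by it. The part of the kidney that was sampled is not given in the sources used here.

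Each array held 43603 probes besides control spots, and 6686 of them (15.3%) could be given a gene symbol, which made 3020 genes. A gene was represented by the probe with the highest mean signal. Signals are given on the log2 scale after quantile normalization over the 5 arrays, which makes the distribution of signals the same on every array. A difference of 1 on this scale is therefore a doubling of the normalized signal. A gene was called detected on an array where the scanner software marked the spot as well above background. For a probe that was not, the signal gives only an upper bound. Values are means ± SD of 5 arrays unless they are listed singly, and a list of 5 signals follows the order of controls 1 to 5.

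The renal tubule reclaims most of the filtered salt, glucose, amino acids and phosphate, and the proximal tubule does the largest share of this work with energy from oxidative metabolism. Its straight part is known to be the segment most sensitive to interrupted blood flow. Surviving tubular cells are known to lose transporters and brush border, to express secreted or adhesion proteins such as lipocalin 2, osteopontin and clusterin, and to divide again. Leukocytes enter the tissue over the same days. Because whole tissue was measured, fewer cells of a type and less RNA per cell cannot be told apart.

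The 5 arrays were much alike over the 3020 genes, with a Pearson correlation between 0.975 and 0.988 for the 10 pairs of arrays. These coefficients run across genes, which are not independent replicates. Controls 3 and 4 were the closest pair, with 77 genes that differed by more than 1 on the log2 scale, and controls 1 and 2 the most distant, with 400. Control 1 differed by more than 1 in 241 to 400 genes from each of the other arrays. Among the 2391 genes detected on all 5 arrays, control 1 was the highest array for 31.1% and the lowest for 23.3%. Control 2 was the highest for 21.3% and the lowest for 18% of them. Control 5 was the lowest for 34.3% of them, and it was also the only control array on the second slide and the one with the fewest spots well above background (62.2% against 65.6% to 69.5% on the others). Slide and pig cannot be told apart for it. For the gene lists in which control 1 was most often highest or lowest, counts are given below with and without it.

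Of the 3020 genes, 2391 (79.2%) were detected on all 5 arrays, 302 (10%) on 1 to 4 arrays and 327 (10.8%) on none. Counts of detected genes in the lists below are to be read against this 79.2%. The measured genes known for their place in the nephron were nearly all detected. In the 6 lists for podocytes, proximal tubule, thick ascending limb, distal convoluted and connecting tubule, principal cells and intercalated cells, 61 of 63 measured genes (96.8%) were detected on every array. FABP1, a fatty acid binding protein, was detected on 1 array, and AQP4, a water channel of the basolateral membrane, on none. In 8 lists for striated muscle, brain, pituitary, pancreas, reproductive tissues, fat, gut, and lung and thyroid, 41 of 99 measured genes (41.4%) were detected on every array and 36 (36.4%) on none. The median percentile of the signal among the 3020 genes was 78.4 for the nephron genes and 17.5 for these others. Most of the nephron genes that could be measured were thus detected on every array, but only 2 of 12 listed podocyte genes were measured. The thick ascending limb had 7 of 15 listed genes measured and the distal convoluted and connecting tubule 5 of 14. Principal cells had 9 of 15 and intercalated cells 5 of 13. No gene of the red blood cell list was measured.

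**Figure D1:**
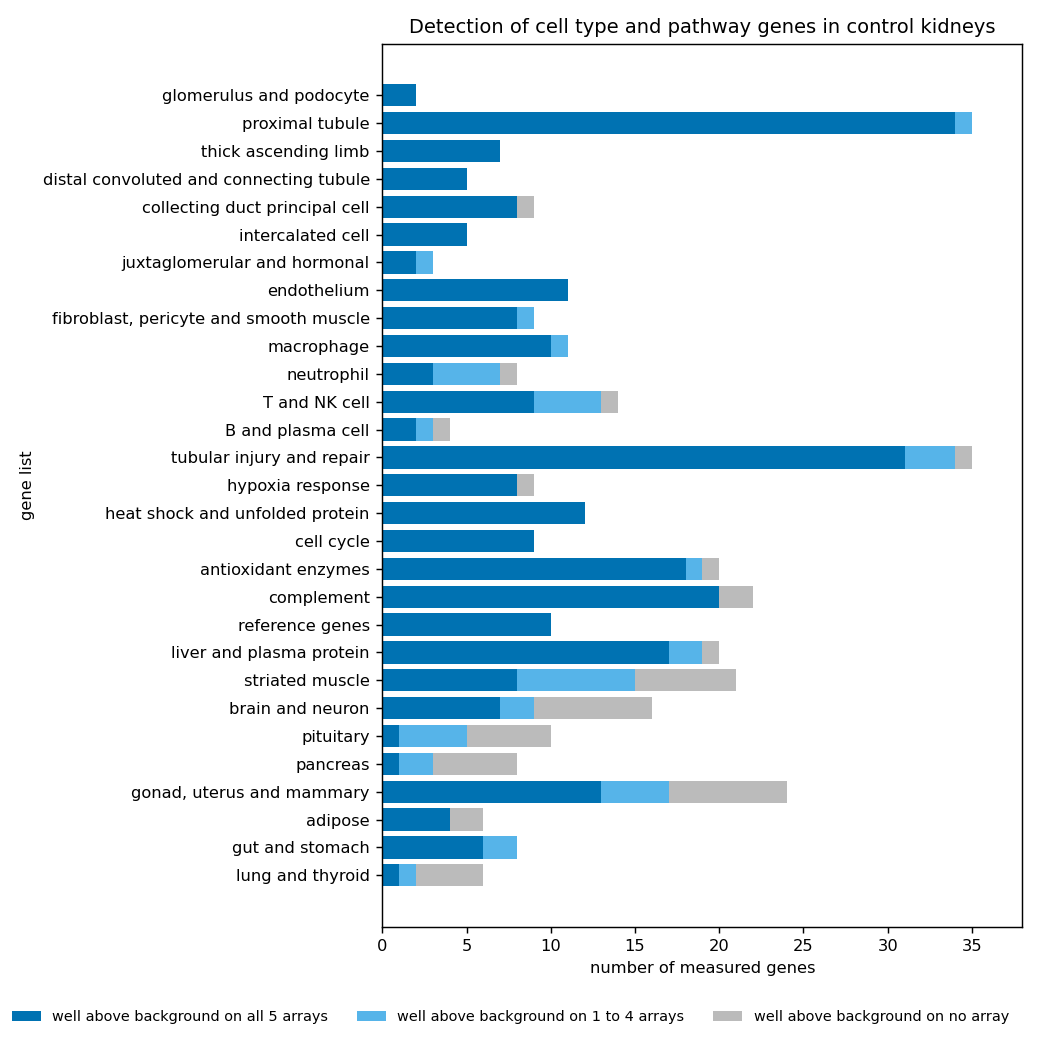
Number of measured genes (horizontal axis) in each gene list that were well above background on all 5, on 1 to 4 or on none of the 5 control arrays. Nephron lists are almost wholly in the class of all 5 arrays, while 36 of 99 genes of the other tissues were detected on none.

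Ribosomal protein genes were the most numerous among the brightest genes, beside both ferritin chains, GPX3 and GAPDH. The 30 brightest spanned 17.39 to 19.17, and their SD over the 5 pigs was 0.02 to 0.45 with a median of 0.10. Equal ranks take equal values under quantile normalization, so a small SD at the top ranks does not show an even level between pigs. Ribosomal proteins made up 12 of the 30, led by RPS20 at 18.49 ± 0.10. Probes differ in how well they bind and label, so this is an order of probe signals and not of molecules. Among the 1565 genes with more than 1 probe, the brightest and dimmest probe of the same gene differed by a median of 2.34, and for 30.7% of them the next probe was more than 2 lower. Of the 27 brightest genes with several probes, the next probe was within 2 in 21.

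Several genes kept a bright signal in more than 1 probe. GPX3, a secreted glutathione peroxidase made by the proximal tubule, had 18.49, 18.57, 18.60, 18.64 and 18.66, and its next probe was at 18.17. This probe differed little between pigs, but the SD of the other probes was 0.32, 0.34 and 0.47. The dimmest of them had 16.34, 17.67, 16.98, 16.97 and 16.89. Control 1 was lowest with all 4 probes. FTH1, the heavy chain of ferritin, which stores iron, was at 18.74 ± 0.05 with a next probe at 18.57. FTL, the light chain, had 18.86, 19.04, 18.87, 18.83 and 19.21 from its only probe, and was highest in control 5. GAPDH, the glycolytic enzyme often used as a reference, was at 18.55 ± 0.07 with a second probe at 17.19. The translation factor EEF1A1 (18.26 ± 0.12) and the growth-related protein TPT1 (18.54 ± 0.12) had next probes at 17.97 and 18.42. The median SD over the 10 reference genes measured was 0.16, about that of all genes with signals above 16 (0.16).

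In other bright genes the next probe was more than 2 lower. MUC13, a transmembrane mucin, had the brightest probe of all at 19.17 ± 0.10, but its other probes were at 4.54 or less. CYP24A1, which inactivates vitamin D in the proximal tubule, was at 19.03 ± 0.02, with another probe at 14.18. ITGB3, an integrin subunit of platelets and vessels, was at 18.82 ± 0.03 and its other probe at 9.29. MUT, the mitochondrial methylmalonyl-CoA mutase, was at 18.76 ± 0.08 and its other probe at 11.97. The place of MUC13, CYP24A1, ITGB3 and MUT among the brightest genes thus depends on which probe is read. The dimmer probes also varied differently between pigs. The dimmer ITGB3 probe had 10.64, 8.10, 9.04, 9.74 and 8.92, while the brighter one stayed between 18.77 and 18.86. CES1, a carboxylesterase, had 16.68, 17.70, 17.41, 17.68 and 17.77, and was lowest in control 1 with this probe and with each of its 6 others. CASP10, whose next probe was within 2, had probes at 18.43, 18.15 and 17.30 but others at 9.06, 8.92 and 8.19. Why the probes of a gene differed was not tested.

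**Figure D2:**
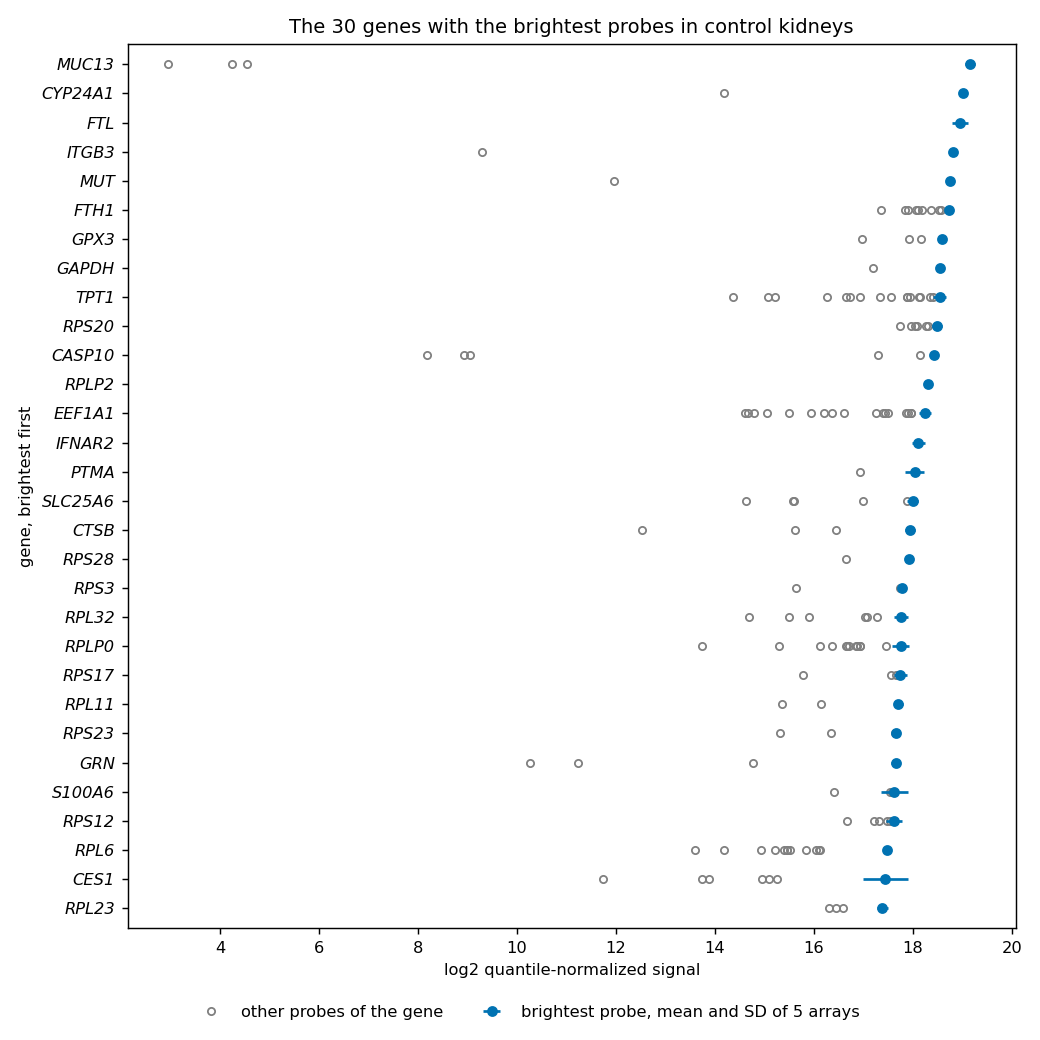
Log2 quantile-normalized signal of the 30 genes with the brightest probes, with the chosen probe as mean and SD of 5 control arrays (filled) and the means of the gene's other probes (open). FTH1 and GPX3 have next probes at 18.57 and 18.17, whereas the other probes of MUC13, ITGB3 and MUT lie at 4.54 or less, 9.29 and 11.97. Each ribosomal protein except RPLP2, which has 1 probe, has a next probe within 2, but dimmer ones reach 13.61 for RPL6.

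In the proximal tubule list 34 of 35 measured genes were detected on all 5 arrays, with a median percentile of 81.8. The enzymes of gluconeogenesis differed between pigs in the same order at both ends. PCK1, the cytosolic phosphoenolpyruvate carboxykinase, had 15.74, 18.11, 16.28, 16.79 and 17.22. G6PC, the glucose 6-phosphatase catalytic subunit, had 10.22, 13.90, 10.87, 11.36 and 11.99. FBP1, fructose-1,6-bisphosphatase, had 16.61, 17.77, 17.05, 17.23 and 17.35. All of these enzymes were lowest in control 1 and highest in control 2, with a distance between these pigs of 3.68 for G6PC. CYP27B1, which activates vitamin D and so opposes CYP24A1, had 5.54, 7.79, 7.20, 5.54 and 6.06, with controls 2 and 3 above the rest.

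Several transporters of this segment also had control 1 lowest and control 2 highest. SLC34A1, the sodium-phosphate cotransporter of the brush border, had 14.30, 15.25, 14.78, 14.77 and 14.77. The basolateral organic anion transporter SLC22A6 had 11.18, 12.43, 11.59, 12.06 and 11.83. The related SLC22A8 had 11.40, 12.85, 11.95, 11.94 and 12.38. Control 1 was lowest and control 2 highest for all of them. The water channel AQP1 had 9.43, 10.86, 10.10, 10.74 and 10.59. The basolateral bicarbonate transporter SLC4A4 had 10.91, 12.77, 11.46, 11.50 and 11.98. Both again placed control 1 lowest. Other genes of the segment did not share this order. ANPEP had 14.69, 15.13, 15.29, 15.68 and 14.55, with its highest signal in control 4, and DPP4 stayed between 14.30 and 14.67. The glucose transporter SLC5A1 was lowest in control 5 (8.40) and highest in control 3 (10.27). The glucose transporter SLC2A2 (8.97) and the amino acid transporter SLC7A7 (14.38) were also lowest in control 5.

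Over the 34 genes, control 1 was the lowest array for 22 (against 23.3% of all genes) and control 2 the highest for 22 (against 21.3%). For 17 of the 34 genes both held, which was the case for 8.28% of all genes. The median difference from the mean of the 5 arrays was -0.48 in control 1 and 0.38 in control 2, and lay between -0.01 and 0.16 in the others. RBP4, the retinol binding protein, ran the other way with 13.87, 11.83, 12.62, 12.73 and 13.65. In the 42 other probes of these genes that were detected on all 5 arrays, control 1 was lowest in 28 and control 2 highest in 27. Over all 2940 other probes detected on every array, the shares were 19.4% and 24.3%. Without control 1, control 2 remained the highest of 4 arrays for 22 of the 34 genes (against 27.2% of all genes).

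The measured genes of the later nephron segments were detected with few exceptions. Of 15 listed genes of the thick ascending limb 7 were measured, without UMOD and SLC12A1, and all 7 were detected on every array. Among them were the tight junction proteins CLDN16 (11.15 ± 0.38) and CLDN19 (11.71 ± 0.25) that let magnesium and calcium pass. EGF, the growth factor made in the thick ascending limb and distal convoluted tubule, had 11.64, 13.12, 12.61, 12.97 and 12.75 and was lowest in control 1. The claudin CLDN14 ran opposite, with 7.82, 5.93, 5.73, 5.66 and 6.99. Of the distal convoluted and connecting tubule, the calcium binding protein CALB1 was at 14.01 ± 0.36, the tissue kallikrein KLK1 at 14.12 ± 0.84 and parvalbumin, PVALB, at 8.51 ± 0.90. KLK1 had its highest signal in control 5 (15.17) and its lowest in control 4 (13.06).

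The principal cells of the collecting duct, which reabsorb water and sodium under vasopressin and aldosterone, had 8 of 9 measured genes detected on all arrays. AQP2, the vasopressin-regulated water channel, had 9.34, 9.20, 10.30, 10.13 and 9.34. AQP3, the basolateral water channel, had 9.52, 10.07, 11.68, 11.33 and 8.77. Both water channels were highest in control 3 and next in control 4. The sodium channel subunit SCNN1G (13.32 ± 0.19), the transcription factor GATA3 (13.44 ± 0.16) and the kinase SGK1 (12.42 ± 0.34) varied less. Control 3 was the highest array for 7 of these 8 genes, against 16.6% of all genes, with a median difference of 0.40 from the mean. It was also the highest for 20 of 27 genes of the respiratory chain and ATP synthase, with a median difference of 0.17. Both counts depended on the scaling between arrays and were 2 without it. Without scaling, however, control 3 was the highest array for only 2.38% of all genes.

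Of 13 listed genes of intercalated cells, which secrete acid or base, 5 were measured, and all 5 were detected on every array. The ammonia transporters RHCG and RHBG were at 14.67 ± 0.39 and 11.46 ± 0.46, and both were lowest in control 1 (14.02 and 10.80). The chloride-bicarbonate exchanger SLC26A4 was at 6.74 ± 0.43. Of the podocyte list only 2 genes were measured. WT1, the transcription factor that podocytes keep through life, was at 9.54 ± 0.30, and CLIC5 at 14.17 ± 0.15. EPO, the hormone of interstitial cells that drives red cell production, was detected on 3 of 5 arrays. Renin was not matched to a probe.

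Of 35 measured injury and repair genes, 31 (88.6%, against 79.2% of all genes) were detected on all 5 arrays. The median percentile of the 35 was 70.1. HAVCR1, which encodes the urinary marker KIM-1, was not matched to a probe. LCN2, lipocalin 2, which binds siderophores and is shed into urine, had 12.71, 9.60, 11.26, 11.79 and 10.17. Its second probe had 12.66, 9.50, 11.18, 11.80 and 10.16. With both probes control 1 was highest, control 4 second and control 2 lowest.

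Other well-known injury genes had the same highest, second and lowest pig. SPP1, osteopontin, had 17.42, 15.44, 16.12, 16.36 and 15.93. CLU, the extracellular chaperone clusterin, had 16.26, 13.55, 14.92, 15.39 and 14.41. In both, control 1 was highest, control 4 second and control 2 lowest. PLAU, the urokinase that activates plasminogen, had 12.75, 10.58, 11.19, 11.83 and 11.35. TIMP1, which inhibits metalloproteinases, had 14.83, 13.24, 13.70, 13.92 and 13.87. HBEGF, a ligand of the EGF receptor, had 9.91, 7.46, 8.77, 9.62 and 8.38. These repeated the order with control 2 lowest. Other secreted proteins of the list did not, and TIMP2 was lowest in control 4 (9.47) and IGFBP7 in control 3 (15.90).

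Cytokines and early response genes were also highest in control 1. IL6 had 8.22, 6.12, 7.26, 7.45 and 6.16. The monocyte attractant CCL2 had 13.21, 11.53, 11.84, 12.10 and 11.71. The interferon-induced chemokine CXCL10 had 13.26, 11.33, 11.02, 11.27 and 11.03. Control 1 stood apart from the other pigs, which lay between 11.02 and 11.33. The transcription factors FOS (7.84, 5.79, 5.94, 5.97 and 4.92), JUN (14.86 ± 0.48) and MYC (9.49 ± 0.72) had the same highest pig. SOX9, a transcription factor of regenerating tubules, was detected on 1 array, and CXCL8 and TGFA on 4. AREG, another ligand of the EGF receptor, was detected on none.

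Control 1 was the highest array for 25 of the 31 injury genes (against 31.1% of all genes), and control 2 the lowest for 16 (against 18%). For 14 of the 31 both held, which was the case for 8.78% of all genes. The median differences from the mean were 0.64, -0.42, -0.06, 0.09 and -0.22. In the 43 other probes of these genes detected on all arrays, control 1 was highest in 30 and control 2 lowest in 26. Over all 2940 other probes detected on every array, the shares were 33.4% and 17.2%. Without control 1, control 4 was the highest of 4 arrays for 19 of the 31 genes, against 24.3% of all genes, and control 2 the lowest for 16, against 22.9%. In the other 6 genes another pig was highest. HMOX1, the heme oxygenase induced by oxidative stress, had 14.04, 14.27, 14.15, 13.95 and 14.56. It was highest in control 5, as were the growth factor binding protein IGFBP3 (9.24) and the TWEAK receptor TNFRSF12A (7.07). The keratin KRT8 (16.07), the lectin LGALS3 (14.43) and the calcium binding protein S100A6 (17.93) were highest in control 4.

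**Figure D3:**
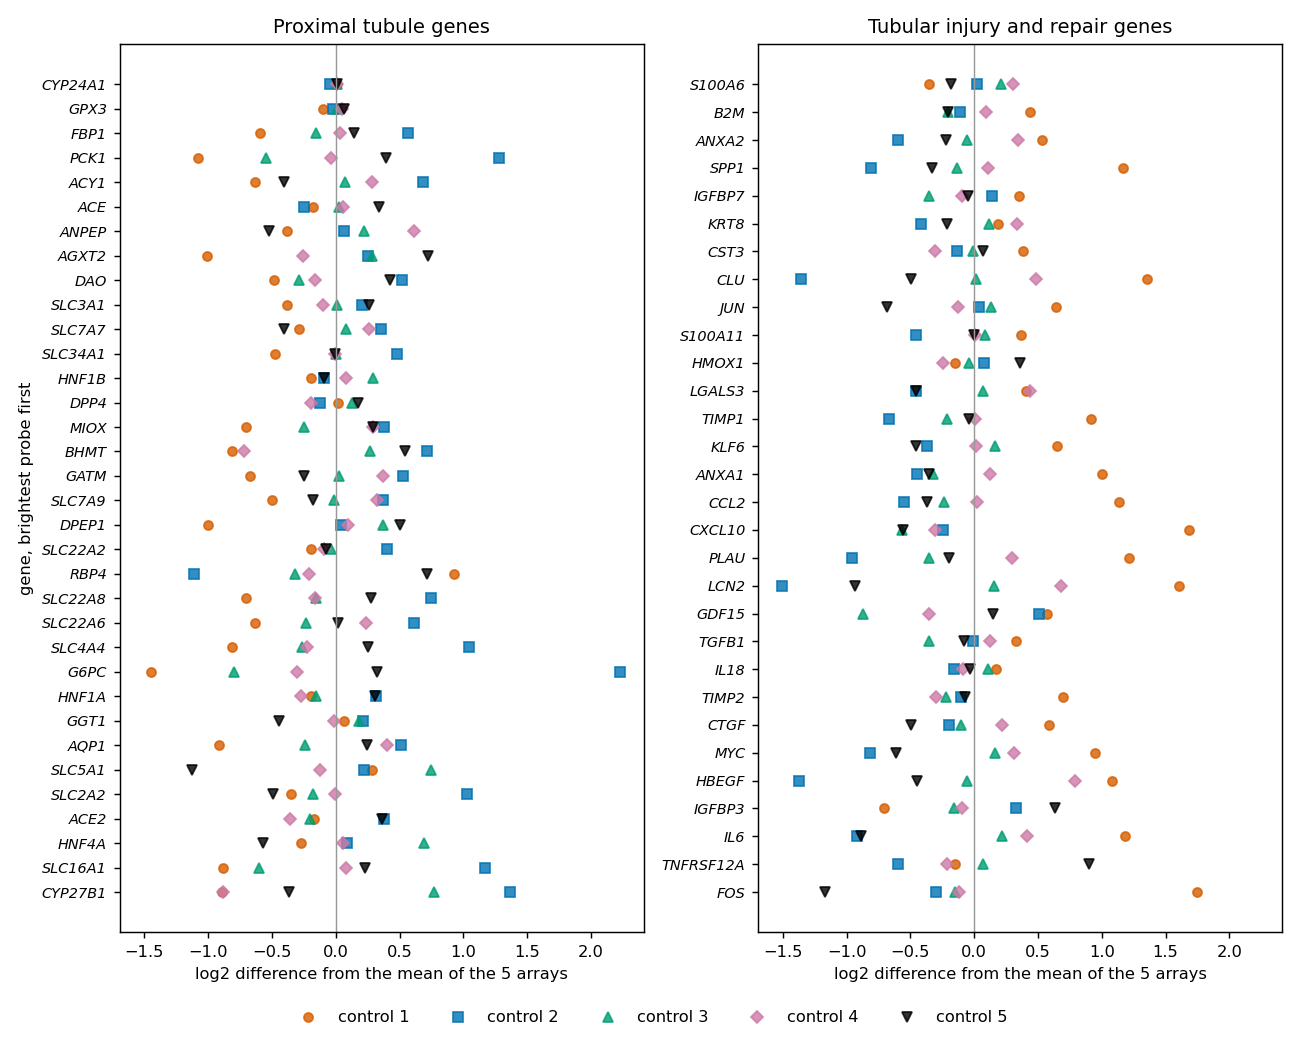
Log2 difference of each control array from the mean of the 5 arrays (horizontal axis) for the 34 proximal tubule genes and 30 of the injury and repair genes detected on all arrays, each symbol being 1 pig. Control 1 is lowest for 22 of the 34 tubule genes and highest for 24 of the 30 injury genes drawn, and control 2 is highest for 22 and lowest for 15.

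Genes of dividing cells were detected in every pig and differed widely between pigs. Of 22 listed cell cycle genes 9 were measured. All 9 were detected on all arrays, with a median SD of 0.98 against 0.28 for all genes. CDK1, the kinase that starts mitosis, had 11.34, 8.15, 8.16, 7.61 and 10.06. TOP2A, the topoisomerase of S phase and mitosis, had 9.67, 6.27, 6.26, 6.02 and 7.98. CCNB1, cyclin B1, had 10.16, 7.36, 6.42, 6.47 and 8.34. For all of them control 1 was highest and control 5 second. Control 1 was the highest array for 8 of the 9 genes, against 31.1% of all genes. Without it, control 5 was the highest for 8 of 9, against 24.0% of all genes. The order of the pigs was thus not that of the injury genes, where control 5 was below control 4 for LCN2, SPP1 and CLU. The median differences of the list were 1.39, -0.54, -0.77, -1.02 and 0.59.

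Most heat shock and antioxidant genes had bright probes. All 12 heat shock and unfolded protein genes were detected on all arrays, with a median percentile of 93.2 and a median SD of 0.28, the same as over all genes. The chaperone HSP90AA1 had 16.18, 16.27, 16.61, 16.37 and 15.49. The endoplasmic chaperone HSP90B1 had 15.58, 15.60, 15.67, 16.02 and 14.90. Control 5 was lowest for both and for 8 of the 12 genes, against 34.3% of all genes. It was also lowest in 36 of 39 other probes of the list, against 36.6% of all other probes. Of 20 antioxidant genes 18 were detected on all arrays (against 79.2% of all genes). Among them were SOD1 (16.73 ± 0.23), catalase, CAT (16.62 ± 0.60), and PRDX2 (16.83 ± 0.12). CAT, a peroxisomal enzyme abundant in the proximal tubule, was lowest in control 1 (15.66) and highest in control 2 (17.27). Of 9 hypoxia response genes 8 were detected on all arrays (against 79.2% of all genes), and the hexokinase HK2 on none. VEGFA was at 10.86 ± 0.13 and the lactate dehydrogenase LDHA at 13.14 ± 0.29.

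Macrophage and T and NK cell genes were mostly highest in control 1, while neutrophil and B cell genes were not alike. Of 11 macrophage genes 10 were detected on all arrays (against 79.2% of all genes). The scavenger receptor CD163 had 12.63, 11.23, 10.43, 11.32 and 10.40. The calcium binding protein AIF1 of macrophages had 13.32, 12.12, 12.29, 12.16 and 11.86. The lysozyme gene LYZ had 13.24, 10.14, 9.95, 9.21 and 9.67. Control 1 exceeded every other pig for 8 of the 10 genes, against 31.1% of all genes. Without it, control 2 was the highest of 4 arrays for 5 of the 10 genes (against 27.2% of all) and control 5 the lowest for 6 (against 40.3%). ARG1, arginase 1, was detected on 4 arrays, where control 1 (9.72) was highest. Of 14 T and NK cell genes 9 (64.3%, against 79.2% of all genes) were detected on all arrays. Control 1 was highest for 8 of the 9 (against 31.1%). Without it, control 5 was highest for 4 of the 9 (against 24.0%). The granule protein gene NKG7 had 10.09, 8.71, 8.50, 8.93 and 8.95. The T cell receptor chain gene CD3G had 8.34, 6.65, 6.61, 7.05 and 8.30, and so was nearly as high in control 5 as in control 1. CD4 was detected on 1 array and IL7R on none. Of 8 neutrophil genes 3 were detected on all arrays, a smaller share than the 79.2% of all genes. S100A12 had 10.74, 8.22, 7.39, 8.23 and 6.31 and was highest in control 1. The gelatinase MMP9 was lowest in control 1 (11.26) and highest in control 5 (12.87). Lactoferrin, LTF, was highest in control 2 (10.13), and S100A8 and S100A9 were detected on 4 arrays. Of 4 B cell genes CD79A and BLNK were detected on all arrays, with CD79A highest in control 2 (5.26).

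Of 13 measured genes of the major histocompatibility complex, called SLA in pigs, 11 were detected on all arrays, and control 1 was the highest array for all 11 (against 31.1% of all genes). Without it, control 4 was highest for 5 of the 11 (against 24.3%) and control 3 lowest for 7 (against 19.2%). The median differences were 0.95, -0.21, -0.36, -0.08 and -0.21. In 31 other probes of these genes control 1 was highest in 28, against 33.4% of all other probes. The complement list had 20 of 22 genes detected on all arrays (against 79.2% of all genes). C1QB, a chain of the C1q recognition molecule, had 12.71, 11.47, 11.39, 11.33 and 11.73. It was highest in control 1. C4A ran otherwise, with 11.90, 14.31, 12.97, 12.53 and 13.02. C8A and C8B, subunits of the membrane attack complex, were detected on no array.

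Of 20 listed endothelial genes 11 were measured, and all 11 were detected on all arrays. PECAM1, which joins endothelial cells, had 13.34, 12.95, 13.19, 13.65 and 13.24. VCAM1, to which leukocytes adhere, had 12.45, 11.39, 11.32, 11.79 and 11.69. The adhesion molecule ICAM1 had 12.19, 11.21, 11.03, 11.47 and 10.99. Control 1 was highest for 6 of the 11 genes (against 31.1% of all genes) and control 4 for 5 (against 14%). Without control 1, control 4 was the highest for all 11, against 24.3% of all genes. Of 9 genes of fibroblasts, pericytes and smooth muscle, 8 were detected on all arrays. ACTA2, the smooth muscle actin, had 14.95, 13.59, 14.60, 14.85 and 14.47, with control 2 lowest. The matrix genes DCN (14.09 ± 0.46) and COL1A2 (12.94 ± 0.28) were highest in control 5.

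**Figure D4:**
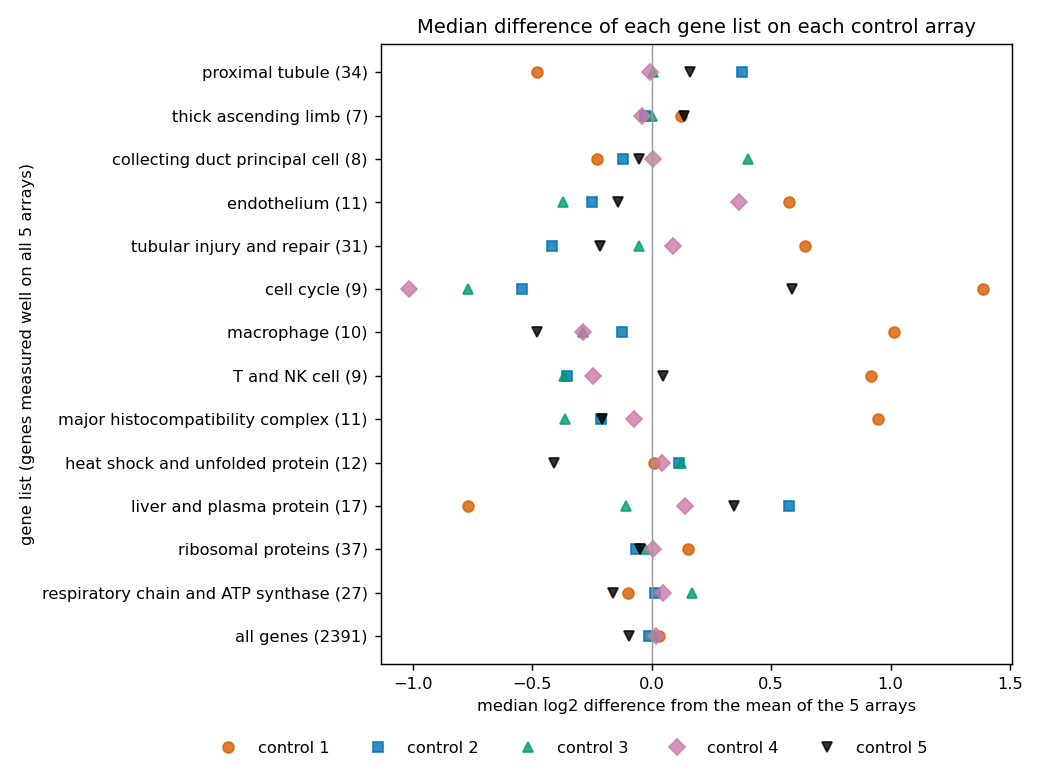
Median log2 difference of each gene list on each control array from the mean of the 5 arrays, with the number of genes in parentheses. Control 1 lies at 1.39 for cell cycle and 1.02 for macrophage genes but at -0.48 for the proximal tubule and -0.77 for liver and plasma proteins, while the medians over all genes lie between -0.09 and 0.03.

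Genes best known from the liver or plasma formed a further uneven list. Of 20 measured genes 17 (85%, against 79.2% of all genes) were detected on all arrays, and these 17 had a median SD of 0.75. TTR, transthyretin, had 9.57, 12.82, 11.00, 11.98 and 13.27. TF, transferrin, had 12.86, 14.71, 14.13, 14.02 and 12.43. PLG, plasminogen, had 6.83, 10.78, 7.89, 9.52 and 9.64. Control 1 was lowest for 11 of the 17 genes (against 23.3% of all genes), TTR and PLG among them, and control 2 was highest for 8 (against 21.3%), TF among them. Without control 1, control 2 was still highest for 8 (against 27.2%). APOA1, the main protein of high density lipoprotein, was even at 12.11 ± 0.22. HP, haptoglobin, had 7.91, 7.30, 7.68, 7.61 and 10.69, with control 5 alone high. Albumin, ALB, was detected on 3 arrays, and SERPINA1, the liver's main protease inhibitor, on none.

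The 327 genes that were detected on no array had signals of 1.80 to 4.31. Of them 242 had a single probe, and 76 of the other 85 were undetected with every probe. The undetected genes included hormones and products of other tissues, such as INS, GCG and SST of the pancreatic islet, GH1, FSHB and TSHB of the pituitary, SFTPA1, SFTPB and SFTPC of the lung, MYOD1, MYL2 and NPPB of muscle and heart, GFAP and NEFL of the nervous system, and ADIPOQ and PLIN1 of fat. The sex-determining gene SRY was also undetected in these female pigs. Among cytokines, 11 of 35 interleukin and interleukin receptor genes were undetected, a share above the 10.8% of all genes, among them IL2, IL4, IL13, IL17A and IL21. Of 79 solute carrier genes 6 were undetected, a share below the 10.8% of all genes, including SLC34A2, the phosphate carrier of lung and gut. Of 26 cytochrome P450 genes 7 were undetected, also a larger share than of all genes, among them CYP7A1 and CYP8B1 of hepatic bile acid synthesis and CYP2E1. None of 24 chemokine genes was undetected on every array.

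Some genes named for other tissues were nevertheless bright. OXT, oxytocin, was at 14.90 ± 0.24 from a single probe. POMC, the precursor of pituitary hormones, was at 11.32 ± 0.25, with other probes at 7.07 and at a signal not above background. ACTA1 (14.47 ± 0.50) and ACTC1 (13.34 ± 0.45), the skeletal and cardiac actins, belong to the same gene family as ACTA2. Whether their probes also bound ACTA2 transcripts was not tested, and their signals are uncertain. ACTA1 and ACTC1 shared with ACTA2 its lowest pig, control 2 (13.73 and 12.63). PDX1, a pancreatic transcription factor, was at 9.48 ± 0.27 and CYP19A1, aromatase, at 11.40 ± 0.19. The other probe of PDX1 was at 4.67 and that of CYP19A1 at 4.33, so the probes of these genes disagreed. The other probes of ACTC1 were at 9.58 and 9.12, and those of ACTA1 ran from 14.02 down to 2.35. The signals are given without a claim of expression.

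The SD between pigs had a median of 0.28 over the 2391 genes detected on all arrays, and 90% of them were below 0.70. An SD above 1 was found for 93 genes (3.89%). Scatter was larger for dim genes, with a median SD of 0.36 for signals under 6 and 0.16 above 16. On 27 probes spotted 5 times, the median SD between spots of an array was 0.08 and between pigs 0.24. The latter also holds labelling and hybridisation error, which cannot be told apart from the spread between animals with 1 array per pig. Control 1 was the highest array for 51 of the 93 genes, against 31.1% of all genes detected on all arrays. The 93 genes were chosen by their SD, to which a distant array adds, so these shares are not alike. Without control 1 the SD exceeded 1 for 50 genes.

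ABO, the glycosyltransferase that makes the A blood group antigen, had the largest SD (2.78), with 8.46, 13.46, 13.60, 8.23 and 8.70. Controls 2 and 3 were at least 4.76 above the others, and the highest exceeded the lowest 41.4-fold. FUT2, the fucosyltransferase that makes the H antigen on which ABO acts, had 5.03, 8.85, 8.33, 5.32 and 5.36. Another FUT2 probe was detected on 2 arrays, controls 2 and 3 (10.88 and 10.20). The third was detected on controls 1, 2 and 3 (7.59, 9.47 and 8.49), so that control 1 did not side with controls 4 and 5 there. These were the only 2 genes in which controls 2 and 3 were separated from the rest by a gap above 2.

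CYP2C42, a cytochrome P450 with the second largest SD, had 8.95, 10.64, 4.83, 5.81 and 10.80. SULT1E1, which sulfates estrogens, had 10.73, 10.26, 7.18, 6.51 and 10.63. In both, controls 1, 2 and 5 were separated from controls 3 and 4 by more than 2. MT1A, a metallothionein that binds zinc and copper, had 15.03, 16.89, 13.06, 13.52 and 16.96, with the same pigs above. CYP1A1, induced through the aryl hydrocarbon receptor, had 7.23, 5.95, 8.58, 9.14 and 5.22, and so was highest in controls 3 and 4. GSTA1, a glutathione transferase, had 11.16, 11.94, 7.91, 10.89 and 8.04. The gene UABP-2 had 5.51, 9.97, 4.66, 6.25 and 10.17.

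A further set was high in control 1 alone. SFN, the 14-3-3 sigma protein of epithelia, had 12.53, 6.70, 7.54, 7.74 and 7.82. REG3G, an antimicrobial lectin, had 11.53, 4.89, 7.39, 6.85 and 8.10. SAA3, an acute phase amyloid protein, had 12.79, 8.33, 9.58, 9.48 and 9.80. In all of these control 1 was more than 2 above every other pig. Of 25 genes with such a gap between neighbouring arrays, 12 had control 1 alone on top, among them the phagocyte genes LYZ, GP91-PHOX, FCN1 and S100A12. These 25 were found among the 2391 genes detected on all arrays, and control 1 was the highest array for 31.1% of the 2391. Of all probes detected on every array, with or without a gene symbol, 0.622% had a gap above 2 between any neighbouring arrays. PCLAF, a partner of the replication clamp, had 12.57, 8.64, 9.39, 9.08 and 11.53, with controls 1 and 5 above the rest as for the cell cycle genes.

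The other genes of the first 15 were FGG, CELA2A and ITIH1. FGG, the fibrinogen gamma chain, had 7.92, 13.04, 7.91, 9.91 and 7.66. Its second probe had 5.32, 10.41, 5.13, 7.36 and 5.32. Control 2 was above the rest with both. CELA2A, a pancreatic elastase, had 10.58, 9.18, 11.61, 6.58 and 6.58. ITIH1, a plasma protease inhibitor chain, had 8.54, 12.05, 10.18, 11.19 and 12.90, the same order of pigs as for TTR. The next 10 genes by SD were S100A12, CYP2B22, LYZ, OVGP1, CDK1, TOP2A, PLG, CCNB1, MYBL2 and PBK, with SDs of 1.50 to 1.63. Of the 25 genes 14 had further probes, and in all 14 at least 1 of these also had an SD above 1. The 25 were chosen by their SD, and no such share is given for all other probes to compare with. No further probe of FUT2, CYP1A1 or PLG was detected on all arrays, so the SD of those probes includes signals that are only bounds. Without control 1, 13 of the 25 were still among the 25 most variable genes. SFN, PCLAF, ITIH1, SAA3 and all of the next 10 except CYP2B22 and OVGP1 were then no longer among them, whereas ABO and FUT2 were.

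**Figure D5:**
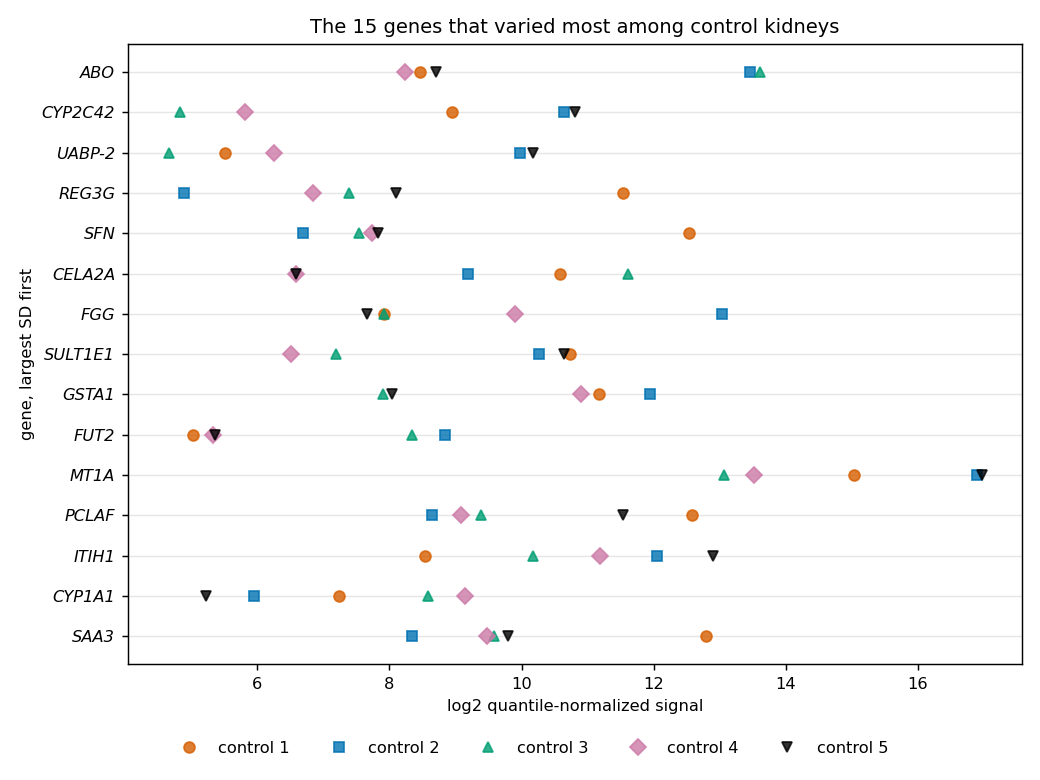
Log2 quantile-normalized signal of the 15 genes with the largest SD on each of the 5 control arrays, each symbol being 1 pig. ABO and FUT2 are high in controls 2 and 3, SFN, REG3G and SAA3 in control 1 alone, and CYP2C42 and SULT1E1 low in controls 3 and 4.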

How the data were processed

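Kidney RNA of 15 pigs was measured on 1-colour Agilent arrays, 1 per pig, and the 5 arrays of the control group were used. The authors deposited intensity values on a linear scale from Agilent Feature Extraction 11.0.1.1 (submitters' processing notes), which the software had corrected for background on each array but had not scaled between arrays. The deposited table holds the mean intensity of each probe's spots. The 5 pigs are separate animals.

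Control spots were removed, and 8 to 18 outlier spots per array were treated as missing. No spot was saturated. Quantile normalization of log2 signals used limma 3.58.1 in R 4.3.3 on the 5 arrays, and 5-fold spotted probes were averaged. RefSeq accessions (7111 probes) were matched to pig symbols (6686 probes, assembly Sscrofa11.1), and older symbols of 4 listed genes were matched by hand. Probes listed by other identifiers were not named. The median processed signal was 70.1 to 98.7 per array. Precision is limited by there being 5 arrays. Detection used the software's well-above-background mark on the brightest probe. Subtracting background on each array bears most on dim probes.

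No group was compared, and the one test run was Dixon's, for a single array far from the others of a named gene. Members and gene lists were chosen with earlier results of these data known. Named were the 30 brightest genes, the 25 of largest SD among those detected on all arrays (the first 15 with all values), the best known genes of the nephron, injury and cell cycle lists, and up to 5 genes of every other list, brightest first, with those undetected. HP, PLG, ACTC1, the second probes and the genes with gaps were chosen after their values were seen. The procedure was tested on simulated data. Alternatives were another scaling (75th percentile, over 15 arrays, or none), normexp background correction with an offset of 50, the deposited table, outlier spots kept, mean or median of probes, another detection mark, the range for the SD, and each array left out. No sequence is printed because none was in the tables used here. Some named genes are counted in the lists but are not reported here by themselves.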

Additional observations from a re-analysis of the deposited data

Results flagged for a closer look

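Of 152 named genes tested for a single array far from the others, 10 had one whose gap to the nearest array exceeded 0.71 of the whole range (6.58%). Chance gives about 1 in 20 for genes not chosen by their values, a rate that does not hold here because the genes of largest SD, SFN, LYZ and OVGP1 among them, were chosen for their spread. In 5 of the 10 the distant array was control 1, which was highest for SFN (12.53), LYZ (13.24), CXCL10 (13.26), BIRC5 (11.82) and TIMP2 (10.46) on the log2 scale. Control 2 was far from the others for the tubular cation transporter SLC22A2, where it was highest (13.38), for the oviduct glycoprotein OVGP1, where it was lowest (5.22), and for CYP24A1, where it was lowest (18.98). Control 5 was lowest for MUC13 (18.98). The whole range was 0.05 for CYP24A1 and 0.23 for MUC13, whose other arrays took the same rank and so the same normalized value. Control 3 was highest for AVPR2, the vasopressin receptor of the collecting duct (8.33), with a range of 0.35.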

How the results depend on the processing

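No paired analysis was possible because only 1 group was described. The planned normexp correction on mean spot signals was not run, since the files used here hold median signals, on which it was run instead, and this and the setting without scaling were chosen after seeing the data. Of 212 main values recomputed, 191 stayed within their limits and 21 moved. With the positive-and-significant mark in place of well above background, 112 genes were undetected instead of 327. Of the 30 brightest genes, 15 were shared with the mean of all probes and 17 with the median. The same settings (mean, then median) gave median percentiles of 60.7 and 62.4 for podocytes (70.7), 73.9 and 74.1 for the thick ascending limb (71.3), 71.1 and 72.1 for the distal convoluted and connecting tubule (67.4) and 62.9 and 59.0 for intercalated cells (68.8). Under normexp, 56 genes had an SD above 1 instead of 93, and the distal convoluted and connecting tubule was at 65.3. The SD exceeded 1 for 202 genes, and 7 of the 25 most variable were shared, when detection on 1 array sufficed. Leaving out 1 array at a time gave 50 (without control 1) to 116 genes with an SD above 1 and 13 (without control 1) to 23 shared genes of 25. FUT2 was no longer among the 25 without control 4, without control 5 or under normexp. Without scaling between arrays, control 1 was lowest for 14 proximal tubule genes instead of 22. There control 3 was highest for only 2.38% of all genes. It was highest for 2 principal cell genes instead of 7 and for 2 respiratory chain genes instead of 20. With the 75th percentile subtracted, control 1 was highest for 12 of 37 ribosomal protein genes instead of 29, against 29.4% of all genes. Under all 8 settings with 5 arrays, control 1 was highest for 25 to 27 injury genes, 8 or 9 cell cycle genes and all 11 genes of the major histocompatibility complex. Over all genes its share in these settings ran from 29.4% (75th percentile subtracted) to 45.3% (no scaling). Signal over background limits the dim genes, whose undetected state is a bound.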

Other observations

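Housekeeping families were bright. All 37 ribosomal protein genes were detected on all arrays with a median percentile of 98.3 and a median SD of 0.13. Control 1 was the highest array for 29 of them, against 31.1% of all genes, a count that depends on the scaling. It was highest for 130 of 150 of their other probes, against 33.4% of all other probes. Without control 1, control 4 was highest for 13 of the 37 (against 24.3%) and control 5 for 12 (against 24.0%). The median difference of control 1 in this family was 0.15. Of 28 genes of the respiratory chain and ATP synthase 27 were detected on all arrays with a median percentile of 95.4, and COX8H on none. All 17 proteasome subunit genes and all 7 cathepsin genes were detected on all arrays, led by PSMC5 (15.40) and CTSB (17.95), a lysosomal protease.

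Cytochrome P450 genes were less even, with a median SD of 0.80 over the 18 detected on all arrays against 0.28 for all genes. Of the 24 chemokine genes 21 were detected on all arrays, and CXCL16 was the brightest (15.66). Of 8 genes of interferons and their receptors IFNA1, IFNB1 and IFNE were detected on no array and IFNG on some, while the receptor gene IFNAR2 was at 18.11 from a single probe.

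Most of the brightest probes have no gene name here. Of the 100 brightest probes 77 were without a symbol, and 38 of these are listed by an Ensembl transcript. The order of the brightest genes therefore covers only the named probes.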
